A study of Mus musculus with 13 samples.

Results

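The 8 liver tumours of mir-122 knockout mice were divided by how much Ifit2 messenger RNA they held, and the 2 with little were set against the 6 with much. Ifit2 encodes an interferon-induced protein with tetratricopeptide repeats and is itself one of the genes that interferon switches on. The division used the single probe set that names Ifit2 (1418293_at), with tumours below 7.5 on the log2 scale called Ifit2-low and the rest Ifit2-high. These 8 tumours are 8 of the 13 arrays of the series, and the other 5 are livers of control mice. The groups were thus chosen by the measured Ifit2 values of these arrays, so every difference between low and high tumours is given as a description, with no test. The low group holds only 2 arrays, which limits every such statement.

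Each array carried RNA of 1 sample. The knockout group lacked mir-122, a microRNA abundant in hepatocytes, the control group was wild type, and all mice had the B6/129 background strain. KO_tumor_11M (3 arrays) and control_liver_11M (2 arrays) were taken at 11 months of age, and KO_tumor_14M (5 arrays) and control_liver_14M (3 arrays) at 14 months. No knockout liver without a tumour was measured, so genotype and tumour cannot be told apart, and the deleted microRNA was not checked on these arrays. The labels do not say that the tumours came from separate mice, so the p-values below measure the spread between samples, which may be partly technical. The titles of KO_tumor_14M replicates 1 and 2 carry no number of the kind the other 6 tumours have. They correlated at r = 0.987, against 0.978 to 0.986 for the other pairs among the 5 high tumours without KO_tumor_11M replicate 2, and are counted here as 2 of the 6 high tumours. Values are log2 intensities after robust multi-array analysis (RMA), where a difference of 1 is 2-fold, and the median of all values was 5.17. Albumin (Alb) lay between 14.47 and 14.78 on all 13 arrays, near the top of the scale, which leaves little room to see a difference in this hepatocyte gene.

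Interferons are secreted proteins, and cells release those of type I and type III on sensing foreign nucleic acid. Type I and type III interferons signal through receptor-bound Janus kinases to transcription factors that bind interferon-stimulated response elements (ISRE) in promoters, while interferon-gamma has a receptor of its own. The genes that respond include antiviral effectors such as the Ifit, Oas and Mx families, guanylate-binding and immunity-related GTPases, chemokines and the antigen presentation machinery.

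Ifit2 stood at 6.45 in KO_tumor_11M replicate 1 and at 6.88 in KO_tumor_14M replicate 4, the Ifit2-low tumours. The Ifit2-high tumours were at 8.84 (KO_tumor_11M replicate 2), 9.74 (KO_tumor_11M replicate 3), 8.90, 8.91, 10.26 and 9.98 (KO_tumor_14M replicates 1, 2, 3 and 5). Control livers were at 4.85 and 5.14 at 11 months and at 4.84, 5.47 and 4.72 at 14 months. The values next to the threshold were thus 6.88 inside and 8.84 outside the low group. Each age held 1 low tumour, beside 2 high tumours at 11 months and 4 at 14 months. Both low tumours were still above every control. Over all 8 tumours Ifit2 was 3.66 higher than in controls on the log2 scale, given without a test because its values chose the groups. In what follows, the values of the low tumours are given in the order 11 months, then 14 months.

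The arrays did not fall into the same groups over the whole genome. On the first principal component of all probe sets, which held 49.5% of the variance, the low tumours lay at -2.74 and 1.55 and KO_tumor_11M replicate 2, an Ifit2-high tumour, at -17.8. The other 5 high tumours lay between 67.8 and 92.2, and controls between -79.4 and -64.5. On the second component (12.8%) the low tumours lay at 72.4 and 72.2, KO_tumor_11M replicate 2 at 25.2 and all other arrays at -7.93 or below. Across probe sets the low tumours correlated with each other at r = 0.979, with KO_tumor_11M replicate 2 at 0.967 and 0.975, and with the other 5 high tumours at 0.951 to 0.965. Results are therefore given with the value of KO_tumor_11M replicate 2 where it stands apart from the other high tumours. Among controls, control_liver_11M replicate 1 and control_liver_14M replicate 3 were nearly identical (r = 0.995, 63 probe sets over 2-fold apart, against 485 to 1315 for the other pairs).

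A gene was called lower or higher in the low tumours where both lay beyond all 6 high tumours and the group means differed by at least 1 on the log2 scale. Of 18194 genes, 336 (1.85%) were called lower and 358 (1.97%) higher, together 3.81%, and the median difference over all genes was -0.02. Without regard to size, 8.69% of genes had both low tumours below all high tumours and 7.75% had both above. Leaving out KO_tumor_11M replicate 2 raised the counts to 658 lower and 598 higher, and leaving out KO_tumor_14M replicate 4 raised them to 753 and 650. Leaving out any other 1 of the high tumours gave 324 to 359 lower and 346 to 403 higher. The choice of groups fixes the direction for Ifit2 itself.

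Antiviral effectors, the proteins that interfere with viral entry, replication and translation, were lower in the low tumours for a part of their list. It held 72 interferon-stimulated genes other than Ifit2, of which 64 were measured, and 13 of these were called lower and 0 higher (1.85% and 1.97% of all genes). Differences were below 0 for 55 of the 64, with a median of -0.77, and the medians within the 11-month and 14-month tumours were -0.69 and -0.75. Without KO_tumor_11M replicate 2 the count was 28, and without KO_tumor_14M replicate 4 it was 24. The rule divided the tumours on a gene of this family, so this count is no independent evidence of its direction. In a bulk sample, fewer cells of a type and less RNA per cell cannot be told apart.

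The nearest relatives of Ifit2 were low in the same tumours. Ifit1, which binds foreign 5 prime RNA ends, was at 7.04 and 7.11 in the low tumours, and at 8.08, 10.35 and 10.88 in the lowest, median and highest high tumour, with controls at 5.76 to 6.25. Ifit3, the partner of Ifit1, was at 7.21 and 7.73, against 8.64, 10.37 and 11.10 in high tumours and 6.44 to 7.32 in controls. Ifit1bl1, an Ifit1-like gene, was at 4.14 and 4.24, against 5.30, 8.10 and 9.58, with controls at 3.98 to 5.06. In all 3 genes the low and high tumours did not overlap, and the lowest high tumour was KO_tumor_11M replicate 2. The differences between group means were -2.87 for Ifit1, -2.83 for Ifit3 and -3.69 for Ifit1bl1. The Ifit genes share sequence, so signal of a close relative in these probe sets was not tested.

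**Figure D1:**
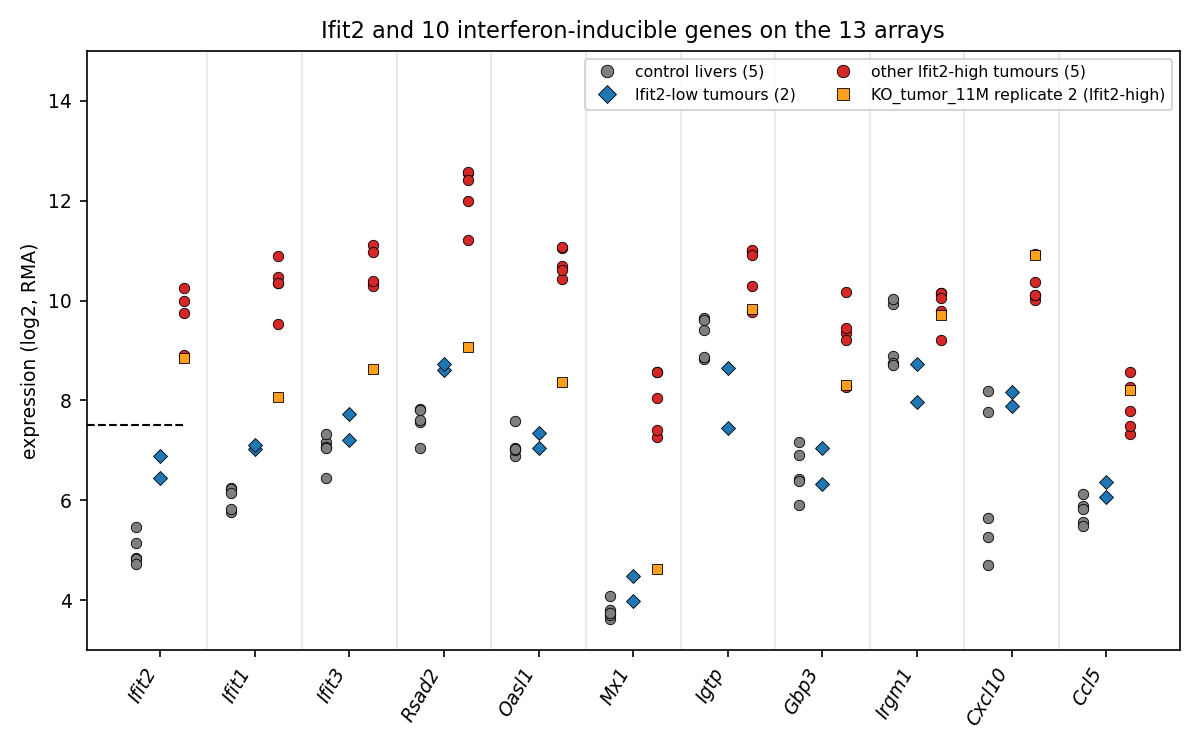
Log2 expression (RMA, vertical axis) of Ifit2 and 10 interferon-inducible genes on each of the 13 arrays, 1 point per array, with the dashed line at the 7.5 threshold for Ifit2. For Rsad2 the low tumours (8.61 and 8.74) and KO_tumor_11M replicate 2 (9.07) lie close together below the other 5 high tumours (11.21 to 12.57), while for Cxcl10 that tumour (10.92) lies with the other high tumours.

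The other called effectors come from other gene families. Rsad2 (viperin), which makes a chain-terminating nucleotide, was at 8.61 and 8.74, against 9.07, 12.20 and 12.57 in high tumours and 7.04 to 7.83 in controls. Mx1, of the Mx family, was at 3.99 and 4.48, against 4.63, 7.73 and 8.58, with controls at 3.62 to 4.09. Oasl1, an oligoadenylate synthetase-like protein, was at 7.05 and 7.35, against 8.37, 10.65 and 11.07, with controls at 6.88 to 7.59. For Mx1 and Oasl1 at least 1 low tumour lay within the range of the controls, whereas for Rsad2 both lay above it. Their differences between group means were -2.96 for Rsad2, -3.18 for Mx1 and -3.17 for Oasl1. The remaining called effectors were Oasl2 (-2.31), Ddx60 (-1.91), Plac8 (-1.77), Slfn1 (-1.33), Ifi204 (-1.26), Ifitm3 (-1.21) and Slfn8 (-1.06). Ifitm3, which hinders viral entry by membrane fusion, was the one with both low tumours (11.76 and 10.88) below all controls (12.48 to 12.98) as well as below the high tumours (12.21 to 12.76).

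Several effectors with large differences were not called because KO_tumor_11M replicate 2 reached the low tumours. Phf11d was at 7.63 and 7.20 in the low tumours, at 7.63 in that tumour and at 9.86 to 11.31 in the other 5. Oas1a, which makes the oligoadenylates that activate RNase L, was at 7.74 and 8.36, at 7.89 in that tumour and at 10.28 to 11.05 in the other 5. Cmpk2, a mitochondrial nucleotide kinase, was at 6.51 and 7.80, at 6.51 and at 9.47 to 10.08. KO_tumor_11M replicate 2 was the lowest of the high tumours for 46 of the 64 effectors, against 25.8% of all genes, and for 11 of the 13 called, against 57.1% of all genes called lower. The mean level over the 64 effectors was 7.57 to 7.60 in the low tumours, 7.72 in KO_tumor_11M replicate 2, up to 8.90 in the other high tumours and 6.91 to 7.19 in controls. Its Ifit2 level of 8.84 thus put a tumour into the high group that by this mean lay next to the low ones. Differences above 0 were fewer. Zc3hav1, a zinc-finger protein that binds viral RNA, was the one effector with both low tumours above all high tumours (7.75% of all genes). It was at 7.88 and 7.93, against 7.59 to 7.87, a difference of 0.16. Tor3a was 0.72 higher (8.97 and 7.0, against 6.33 to 7.90) and Parp9 0.30 higher, each with overlap.

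**Figure D2:**
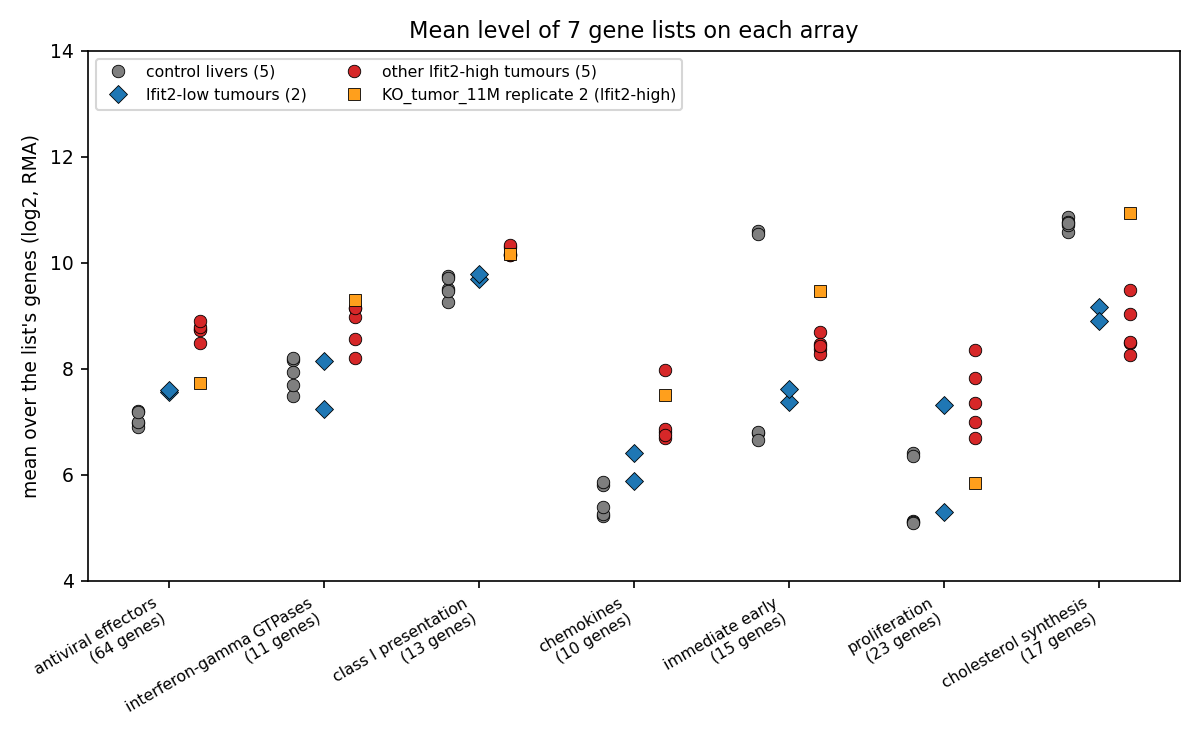
Mean log2 level (RMA) over the measured genes of 7 lists on each array, 1 point per array. KO_tumor_11M replicate 2 lies near the low tumours for the antiviral effectors (7.72 against 7.57 to 7.60). For the interferon-gamma-inducible GTPases it has the highest mean (9.29, against 7.25 to 8.15 in the low tumours). That mean includes its high value of Gbp2b (7.98).

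The interferon-gamma-inducible GTPases, which attack vacuoles that hold pathogens, separated the groups differently. Of 19 genes on the list 11 were measured, and 6 were called lower (1.85% of all genes) and 0 higher, with a median difference of -1.44 (-1.96 at 11 months and -0.89 at 14 months). Gbp3, a guanylate-binding protein, was at 6.33 and 7.05, against 8.27, 9.28 and 10.17 in high tumours and 5.91 to 7.16 in controls. Igtp (Irgm3) was at 7.45 and 8.64, against 9.76, 10.60 and 11.01, with controls at 8.83 to 9.66. Both low tumours were therefore below every control for Igtp but not for Gbp3. The other genes called were Gbp7 (-1.99), Gbp2 (-1.76), Irgm1 (-1.49) and Irgm2 (-1.44). KO_tumor_11M replicate 2 was the lowest high tumour for 0 of the 11 GTPases, unlike for the effectors. For Gbp3 (8.31), Igtp (9.84) and Gbp7 (8.40) it still lay just above the lowest high tumour (8.27, 9.76 and 8.28). For Gbp2 it was at 8.57, within the range of the other high tumours (7.49 to 9.29). Gbp2b, another guanylate-binding protein, was at 7.98 in that tumour and at 3.82 to 4.67 in the other 5 high tumours, with the low tumours at 4.68 and 4.95.

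Promoters of 4 called genes are shown because their letters resemble the ISRE that the factors of the interferon pathway bind. The windows run from 250 bases before to 50 after the annotated start, are taken from RefSeq with build GRCm38.p6, and read 5 prime to 3 prime on the strand of the gene. Capitals mark matches to GAAANNGAAA on either strand. The window of Ifit1 lies at chr19:34640639-34640938 on the plus strand, Ifit3 at chr19:34583279-34583578 on the plus strand, Rsad2 at chr12:26456403-26456702 on the minus strand and Igtp at chr11:58199306-58199605 on the plus strand.
Ifit1: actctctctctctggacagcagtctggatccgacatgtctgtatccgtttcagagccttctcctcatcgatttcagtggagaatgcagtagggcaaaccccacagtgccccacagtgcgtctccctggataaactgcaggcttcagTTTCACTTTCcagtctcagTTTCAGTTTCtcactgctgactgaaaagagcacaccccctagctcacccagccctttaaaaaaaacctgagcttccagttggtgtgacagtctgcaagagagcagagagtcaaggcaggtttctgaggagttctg
Ifit3: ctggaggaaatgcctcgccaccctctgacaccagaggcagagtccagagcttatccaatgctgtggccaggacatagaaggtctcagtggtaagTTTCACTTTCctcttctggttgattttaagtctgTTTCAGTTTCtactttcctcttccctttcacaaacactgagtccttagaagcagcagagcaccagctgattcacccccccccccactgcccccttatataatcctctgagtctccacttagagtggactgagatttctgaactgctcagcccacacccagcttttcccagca
Rsad2: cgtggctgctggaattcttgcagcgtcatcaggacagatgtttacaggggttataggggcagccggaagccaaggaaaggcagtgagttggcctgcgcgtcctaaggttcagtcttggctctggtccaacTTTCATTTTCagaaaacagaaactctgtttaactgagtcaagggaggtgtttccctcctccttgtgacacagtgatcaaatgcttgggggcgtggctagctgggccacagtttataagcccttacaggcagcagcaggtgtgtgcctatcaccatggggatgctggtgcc
Igtp: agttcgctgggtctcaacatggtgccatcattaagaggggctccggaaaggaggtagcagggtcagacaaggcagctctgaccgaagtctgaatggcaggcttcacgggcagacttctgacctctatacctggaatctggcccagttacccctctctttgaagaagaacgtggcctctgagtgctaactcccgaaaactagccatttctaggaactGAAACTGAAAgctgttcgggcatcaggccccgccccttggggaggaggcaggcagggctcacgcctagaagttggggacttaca

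Ifit1 and Ifit3 each held 2 matches, and Rsad2 and Igtp 1 each. Counted from the annotated start, the first matches began at base -104 in Ifit1, -156 in Ifit3, -120 in Rsad2 and -34 in Igtp. The RefSeq table gave windows for 14453 of the 18194 genes, and 524 of these (3.63%) held the motif. Among effectors it was in 21 of 52 windows (40.4%), and among the GTPases in 7 of 8 (87.5%). It was in 7 of the 11 called effectors that had a window and in 14 of the 41 others. Of all genes called lower, 23 of 267 (8.61%) held it, and of those called higher, 2 of 279 (0.717%). A second pattern, TTCNNNGAA, known from genes that respond to interferon-gamma, which may share letters with the first, was in 10 of the 52 effectors (19.2%) and in 8.57% of all genes. It was in 1 of the 11 called effectors, in 9 of the 41 others and in 3 of the 8 GTPases. The 2 windows of Ifit2 held no match to GAAANNGAAA in these letters, and matches are a description, not binding sites.

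Messenger RNA of the secreted interferons, as far as it was measured, did not separate the groups. Of 18 ligand genes 9 were measured, 0 were called in either direction (3.81% of all genes), and the median difference was 0.10. Their levels lay between 2.52 and 6.50 on all arrays, the highest being those of Ifna1, an interferon-alpha gene, at 5.62 to 6.50. Most of these levels were below the median of all values (5.17), where a difference is hard to see. The 0 calls therefore cannot show that the groups held alike amounts of interferon, and the proteins were not measured. Ifng, the interferon-gamma gene, was at 2.52 and 2.64 in the low tumours and at 2.60 to 2.98 in the high tumours. Ifna2, a further interferon-alpha gene, was at 5.41 and 5.11, against 4.71 to 5.19.

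Receptors and signalling genes were called in 0 of 16 cases (3.81% of all genes), with a median difference of -0.10. Both low tumours lay above all high tumours for 3 of them (7.75% of all genes), by less than the size called. Ifnar2, a chain of the type I receptor, was at 11.07 and 11.12, against 9.74, 10.15 and 10.67, with a difference of 0.93. Its partner Ifnar1 (8.48 and 8.29, against 7.75 to 8.16) and Il10rb, a chain of the type III receptor (9.75 and 9.57, against 8.57 to 9.55), differed by 0.41 and 0.61. The kinase Jak1 was lower by 0.43 without overlap (9.57 and 9.72, against 9.90 to 10.40). Irf7, the factor that amplifies the type I response, was at 8.67 and 8.30, against 7.99 in KO_tumor_11M replicate 2 and 9.86 to 10.43 in the other 5. Stat2 overlapped as well, at 7.37 and 6.95, against 6.87 to 8.71, and Irf9 differed by -0.26.

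Of 16 nucleic acid sensors and adaptors, 1 was called lower (1.85% of all genes). Zbp1, a sensor of Z-form nucleic acid, was at 7.11 and 6.92, against 7.84, 8.53 and 8.97 in high tumours and 6.15 to 6.74 in controls, a difference of -1.47. Ddx58 (RIG-I), which senses viral RNA, differed by -0.65 with overlap (7.56 and 8.34, against 8.23 to 8.78). The median over the 16 was -0.42. Of 10 feedback inhibitors, 1 was called lower (1.85% of all genes). This was Socs3, a brake on cytokine receptors, at 7.18 and 6.94, against 7.63 to 9.75 in high tumours. In controls Socs3 spread from 5.80 to 10.35, with the nearly identical pair at 10.29 and 10.35. Usp18, a deubiquitinase that damps the type I receptor, was at 10.04 and 9.25, between KO_tumor_11M replicate 2 (8.19) and the other 5 high tumours (10.26 to 11.04).

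The chemokine list holds secreted attractants of T cells and monocytes and a pair of their receptors. Of 10 genes measured, 3 were called lower (1.85% of all genes), and the median difference was -0.90, at -1.99 within 11 months and -0.41 within 14 months. Cxcl10 was at 8.18 and 7.89, against 10.01, 10.24 and 10.93 in high tumours, with controls at 7.78, 5.27, 4.71, 5.66 and 8.19. Ccl5 was at 6.07 and 6.36, against 7.32, 8.0 and 8.56, with controls at 5.50 to 6.13. Cxcl9 was at 7.70 and 8.79, against 8.84, 9.70 and 10.54, so that the 14-month low tumour lay just below the lowest high tumour. The differences were -2.37, -1.72 and -1.37 in that order. In class I antigen presentation, which displays peptides to cytotoxic T cells, 0 of 13 genes were called, although 5 did not overlap (8.69% of all genes). These were the immunoproteasome subunits Psmb8 (-0.97) and Psmb9 (-0.71), the transporter Tap2 (-0.47), the regulator Nlrc5 (-0.77) and the heavy chain H2-D1 (-0.50). Class II presentation had 0 calls among 6 genes (3.81% of all genes), and its median was -1.42 within 11 months and 0.28 within 14 months. Cd74, the invariant chain, was at 10.06 and 11.55, against 11.00 to 12.34.

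**Figure D3:**
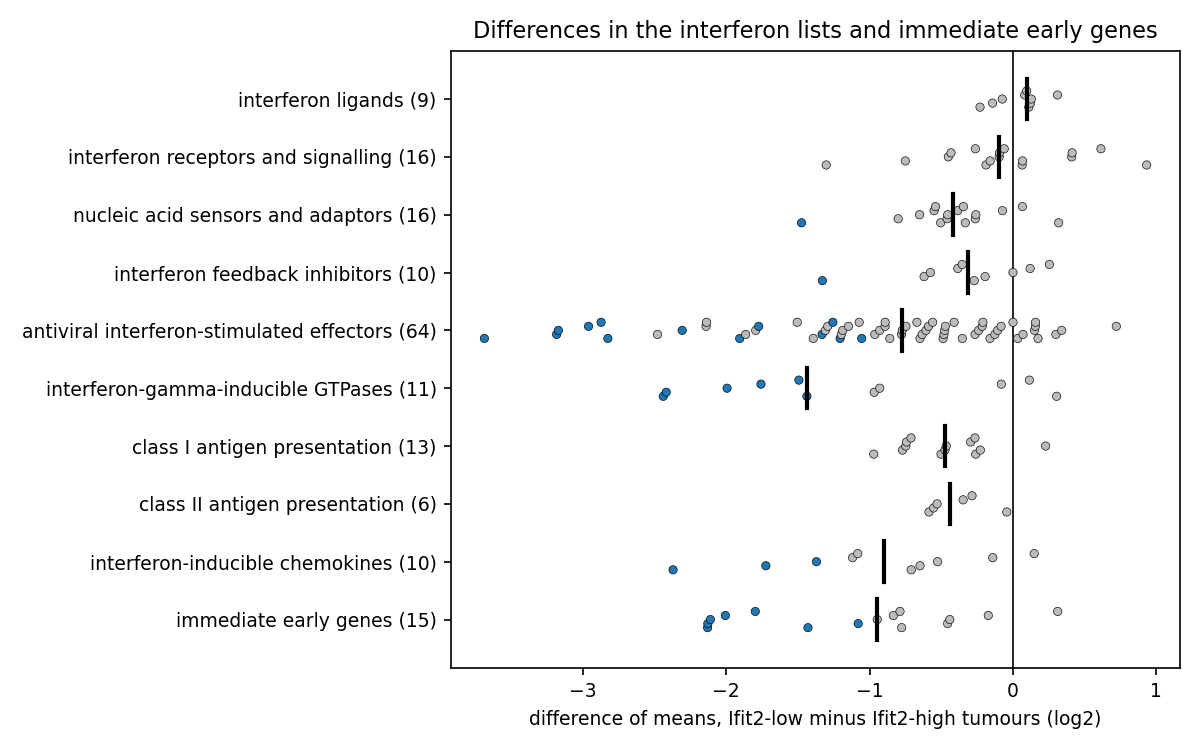
Difference of group means (Ifit2-low minus Ifit2-high tumours, log2, horizontal axis) for each measured gene of 10 lists, with the list's median as a black bar and called genes in blue. The medians were -0.77 for antiviral effectors, -1.44 for the GTPases and 0.10 for the ligands.

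Tumours were also compared with controls over all arrays, a test that did not use the division. Of the 64 effectors, 37 were higher in tumours and 0 lower (limma, adjusted p under 0.05), against 10.3% and 9.81% of all genes (20.1% in either direction), with a median of 1.04. At an unadjusted p under 0.05 limma gave 47 higher and 1 lower. The count of 37 depended on the controls. It was 24 without control_liver_11M replicate 1 and 25 without control_liver_11M replicate 2, the latter outside the nearly identical pair. Without control_liver_14M replicate 3, the pair's other member, it was 34, and without both members of the pair it was 17. The counts of 24, 25 and 17 each left 1 control of the younger age, so the part of the pair itself was not tested. Against the controls, all 6 high tumours lay above all 5 controls for 34 effectors (9.08% of all genes), and both low tumours for 33 (15.9%). Both low tumours lay below all controls for 6 effectors (19.1% of all genes). The mean level over the list was above that of every control in both low tumours (7.57 to 7.60, against 6.91 to 7.19). Rsad2 was 3.10 higher in tumours (SE 0.74, limma adjusted p = 0.0142), Ifit1 3.01 (SE 0.68, limma adjusted p = 0.011) and Plac8 2.86 (SE 0.54, limma adjusted p = 0.00502), each with 8 of 8 tumours above all controls. Ifit1bl1, with 2.55 (SE 0.99), did not pass (limma adjusted p = 0.0887).

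The other interferon lists were read in the same test, in which 10.3% of all genes were higher in tumours and 9.81% lower. Class II genes were higher in 6 of 6 cases, with a median of 1.95. Of the 11 GTPases 4 were higher in tumours and 1 lower, namely Iigp1 (-0.81, limma adjusted p = 0.0376), and Igtp, at 0.46, did not pass (limma adjusted p = 0.586). Receptors and signalling genes were higher in 8 of 16 cases, sensors in 4 of 16, class I genes in 7 of 13 and chemokines in 5 of 10, with 0 lower in each and in class II, also at an unadjusted p under 0.05. Of 9 ligands 0 were higher and 1 was lower (0 and 2 at an unadjusted p under 0.05). Of 10 feedback inhibitors 5 were higher and 1 lower. Cxcl10 was 3.46 higher in tumours (SE 0.76, limma adjusted p = 0.0098). The difference of the tumour effect between 11 and 14 months passed the threshold for 0 of all genes in limma, and at an unadjusted p under 0.05 for 544, of which 4 were effectors. The smallest adjusted p among effectors was 0.999 in limma.

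Immediate early genes, which answer to growth factors and stress within minutes, also separated the groups. Of 15 measured, 7 were called lower (1.85% of all genes) and 0 higher, 9 did not overlap (8.69%), and the median difference was -0.95. Fos, a subunit of the AP-1 factor, was at 6.36 and 6.65, against 8.05, 8.75 and 9.15 in high tumours. In controls Fos was at 6.91, 6.34 and 5.86, and at 12.68 and 12.73 in the nearly identical pair. The low tumours thus fell in the range of the other 3 controls, and the high tumours lay between both sets of controls. Nr4a1, a nuclear receptor, was at 7.56 and 7.15, against 8.36, 9.51 and 10.19, and Dusp1, a phosphatase of MAP kinases, at 8.91 and 9.08, against 10.68, 11.04 and 11.80. Ier3 (-2.01), Btg2 (-1.80), Atf3 (-1.43) and Ier2 (-1.08) were called as well. Junb differed by -0.95 without overlap, and Egr1 by -0.78 with overlap, its highest value being 12.62 in KO_tumor_11M replicate 2. The nearly identical controls were high for most of these genes, and the part of this in the comparison with controls was not tested.

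**Figure D4:**
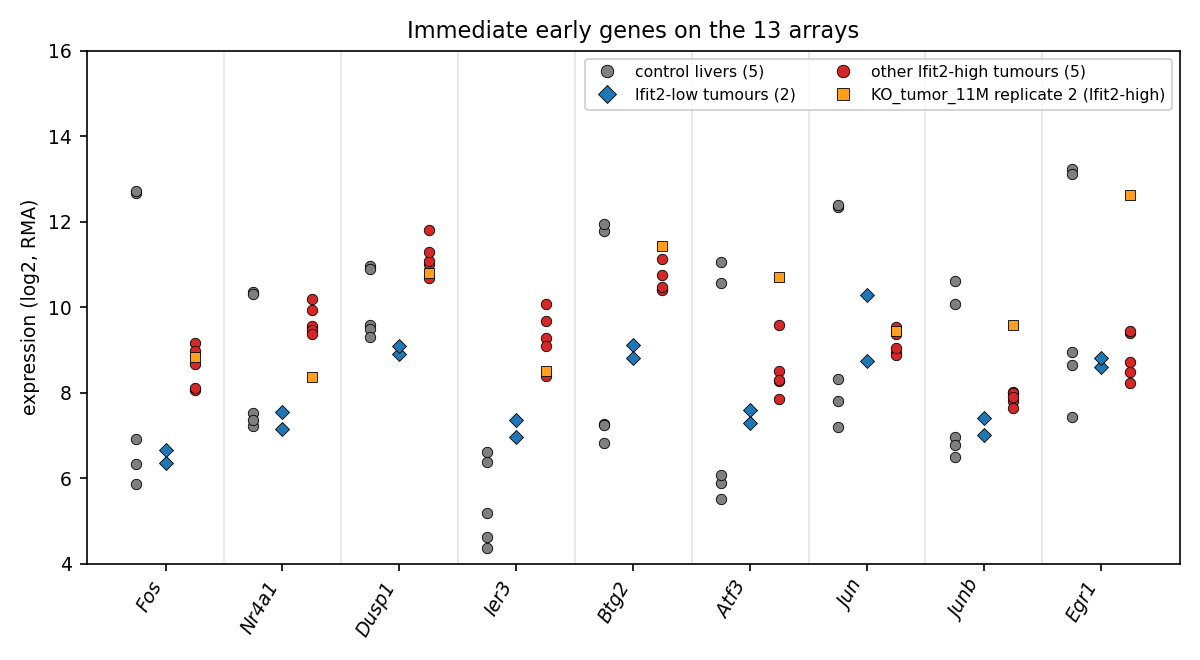
Log2 expression (RMA, vertical axis) of 9 immediate early genes on each of the 13 arrays, 1 point per array. For Fos the low tumours (6.36 and 6.65) lie below the high tumours (8.05 to 9.15), and 2 controls lie far above the other 3 (12.68 and 12.73 against 5.86 to 6.91).

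The 12 genes with the largest differences in each direction were taken over all genes, whatever their function. Among those lower, Il33, an alarmin cytokine, was at 5.37 and 6.51, against 7.52, 11.45 and 12.22 in high tumours and 4.93 to 5.77 in controls, a difference of -4.98. Asns, which makes asparagine, was at 5.83 and 6.10, against 9.73, 10.90 and 11.76, with controls at 8.10 to 10.01, a difference of -4.88. Il33 in the low tumours was near the controls, whereas Asns was below every other array. Mgst2, a glutathione transferase, differed by -4.20, Apela, a peptide hormone, by -4.16, Pfkp, a platelet-type phosphofructokinase of glycolysis, by -4.0 and Iqca by -3.97. Procr, the endothelial protein C receptor (-3.92), Htra1, a secreted serine protease (-3.70), Got1, an aspartate aminotransferase (-3.66), Nnmt, which methylates nicotinamide (-3.44), and Ackr3, a scavenging chemokine receptor (-3.32), followed, with Ifit1bl1 between Htra1 and Got1. KO_tumor_11M replicate 2 was near the low tumours for several of them. It was at 6.32 for Pfkp, against 10.10 to 10.90 in the other 5 high tumours and 5.54 and 5.93 in the low ones, and at 4.10 for Iqca, against 7.95 to 9.69 and 4.02 and 4.0.

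Among the genes higher in the low tumours, 12 differed by 3.96 or more. Cyp2c55, a cytochrome P450 that oxidises arachidonic acid, was at 10.66 and 13.11, against 4.74, 5.17 and 8.38 in high tumours and 7.27 to 9.27 in controls, a difference of 6.09. Hsd17b6, a steroid and retinol dehydrogenase, was at 12.75 and 12.65, against 5.29, 6.28 and 10.87, with controls at 7.86 to 10.94, a difference of 5.75. Igfbp2, which binds insulin-like growth factors, was at 12.62 and 10.97, against 4.0, 5.65 and 10.31, with controls at 11.10 to 12.27, a difference of 5.65. For Igfbp2 the low tumours were close to the controls, KO_tumor_11M replicate 2 lay slightly lower (10.31) and the other 5 high tumours far below (4.0 to 6.42). For Cyp2c55 both low tumours exceeded all controls. KO_tumor_11M replicate 2 was also the highest high tumour for Cyp2c55 (8.38, against 4.74 to 6.23 in the other 5) and Hsd17b6 (10.87, against 5.29 to 7.61). Cyp4a14, a fatty acid hydroxylase (4.83), the acyl-CoA thioesterases Acot1 (4.60) and Acot3 (4.13), the lipid droplet protein Cidea (4.70) and the pantetheinase Vnn1 (3.96) were likewise above all controls in both low tumours. Acot1 and Acot3 are near copies of each other, so their signals may not be separate. Tmem54 was at 8.90 and 9.21 and at 3.83 to 4.63 on all 11 other arrays (4.64). Anxa13, a membrane-binding annexin (4.39), Fabp2, a fatty acid binding protein (4.28), and Ildr2 (4.27) completed the 12. Ildr2 was at 10.02 in KO_tumor_11M replicate 2, against 5.26 to 7.12 in the other 5 high tumours and 10.26 and 11.31 in the low ones.

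**Figure D5:**
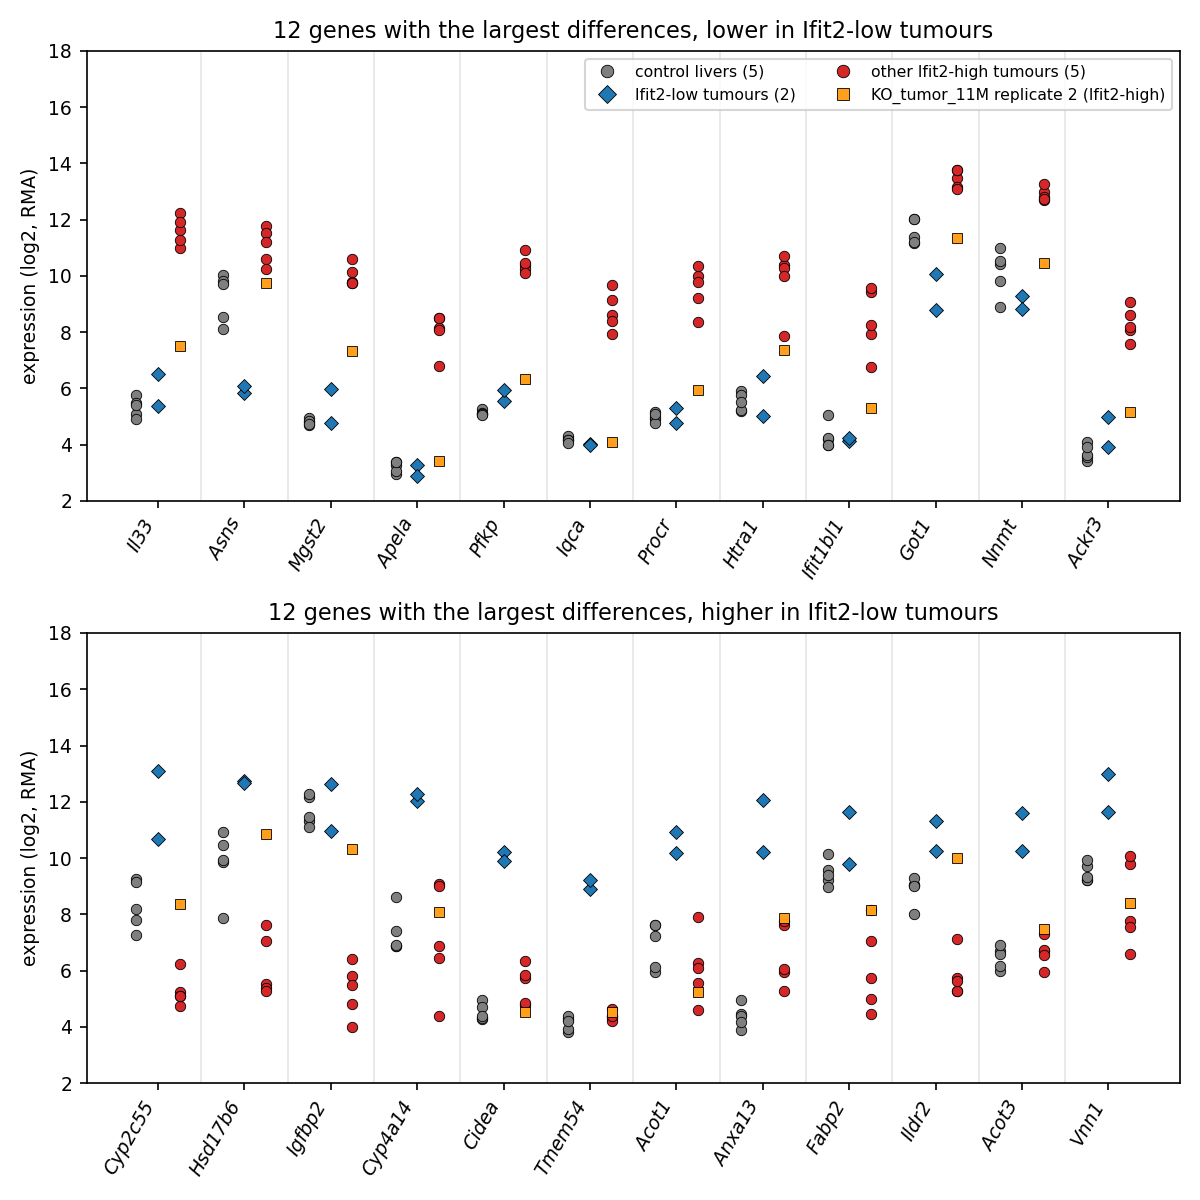
Log2 expression (RMA, vertical axes) of the 12 genes with the largest differences in each direction on each array, 1 point per array, lower in the low tumours in the upper panel and higher in the lower panel. Cidea and Tmem54 stand high in the low tumours alone, while for Igfbp2 the controls (11.10 to 12.27) lie with the low tumours.

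The called genes were also set against the controls, where both low tumours lay below all controls for 19.1% of all genes and above them for 15.9%. Of the 336 genes called lower, both low tumours lay below all controls for 124 and above them for 54, and 158 were within or across their range. Of the 358 called higher, both lay above all controls for 246, below for 10 and within or across their range for 102. These genes were chosen for low or high values on the same 2 arrays, so nothing is read from these counts. KO_tumor_11M replicate 2 was the lowest high tumour for 57.1% of the genes called lower (25.8% of all genes) and the highest for 48.9% of those called higher.

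The 10 genes whose values followed those of Ifit2 most closely over the 8 tumours were Hddc2, Inpp1, Nol11, Larp1, Igtp, Ttc1, Ifi35, Cdh6, Mrpl27 and Mrpl58. Their Pearson correlations lay between 0.967 and 0.985. Within the 6 high tumours they were between 0.847 and 0.980, but the genes were picked on values that include these 6. Igtp (0.974) and Ifi35 (0.970) are members of the interferon lists. These points share arrays and the division itself, so the correlations are a description. Hddc2, with the highest (0.985), was at 4.78 and 5.06 in the low tumours, at 5.91, 6.58 and 7.17 in the high tumours and at 4.70 to 4.97 in controls. It was thus near the control level in the low tumours and above it in all 6 others.

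Markers of immune and stromal cells were read beside these results. Lists for T cells, NK cells, B and plasma cells, neutrophils, stellate cells and fibroblasts, cholangiocytes, erythroid cells and hepatocytes had 0 calls in either direction (3.81% of all genes). They held only 4 to 14 measured genes each, so 0 calls says little. Without regard to size, both low tumours lay below all high tumours for 3 of 14 hepatocyte and 2 of 7 NK cell markers (8.69% of all genes). The neutrophil and the stellate cell lists had 1 such marker each. Both lay above for 1 hepatocyte marker (7.75%). Ptprc (CD45), on all white blood cells, was at 8.75 and 9.88, against 9.34 to 10.74 in high tumours and 7.55 to 8.43 in controls. T cell markers summed to 366 and 394 in linear intensity in the low tumours, to 374 to 562 in high tumours and to 336 to 407 in controls, and no probe set was at 0. Of 8 monocyte and dendritic cell markers 1 was called lower (1.85% of all genes), Itgax (CD11c), at 5.81 and 6.15, against 6.61 to 8.67. Their sum was 1444 and 3518 in the low tumours, 1948 to 4063 in high tumours and 791 to 1038 in controls. The part of these cells in the interferon differences was not tested.

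Some genes of resident macrophages had a different pattern. Of 12 Kupffer cell and macrophage markers 1 was called higher (1.97% of all genes), Mertk, a receptor for dying cells (8.57 and 8.17, against 6.52 to 7.77). Vsig4, a complement receptor of Kupffer cells, was at 9.11 and 9.51, at 10.07 in KO_tumor_11M replicate 2 and at 3.53 to 7.18 in the other 5, with controls at 9.05 to 9.64. Clec4f, a lectin of Kupffer cells, was at 8.74 and 9.18, at 9.53 and at 5.19 to 7.27, with controls at 9.49 to 9.73. Cd5l followed the same order (10.58 and 11.50, 11.36, and 7.13 to 9.44). In these 3 genes the low tumours and KO_tumor_11M replicate 2 lay near the controls and above the other 5 tumours. The marker sum was 7965 and 13372 in the low tumours, 6306 to 8034 in controls and 4920 to 14461 in high tumours, so the whole list did not separate them. Of the 12 markers, 4 differed below 0. The median difference was 0.57, but it was -0.73 within 11 months and 1.32 within 14 months. Of 10 endothelial markers 4 differed below 0, the median was 0.21, and the sum was 2262 and 2537 in the low tumours, inside the range of the high tumours (1205 to 3218). Tek, an angiopoietin receptor, was called higher (1.97% of all genes; 7.40 and 6.75, against 5.24 to 6.73), and Clec4g, of sinusoidal endothelium, overlapped (8.93 and 9.04, against 5.50 to 10.20). Pecam1 (CD31) and Cdh5, at junctions between endothelial cells, were lower without overlap (8.69% of all genes), by less than the size called (-0.76 and -0.56). Among 6 plasmacytoid dendritic cell markers, Ly6d was called higher (12.77 and 12.91, against 8.01 to 11.55) and Cox6a2 lower, by -1.14 (1.97% and 1.85% of all genes). Ly6d is also on the list of fetal liver and tumour markers below, so its call is not particular to these cells. Siglech, the defining marker, was at 5.41 and 4.51, against 4.56 to 4.96.

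Proliferation genes were called in 0 of 23 cases (3.81% of all genes), although 22 differed below 0, with a median of -0.91. None of the 23 was without overlap (8.69% below and 7.75% above among all genes). KO_tumor_11M replicate 2 was the lowest high tumour for 21 (25.8% of all genes). The median difference was -1.72 within 11 months and 0.08 within 14 months. Mki67, a marker of cycling cells, was at 4.61 and 7.88, against 6.00, 7.61 and 9.05. The low tumours thus differed from each other, the one of 11 months lying below all high tumours.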

How the data were processed

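Messenger RNA was measured on 13 one-colour Affymetrix arrays, from 6 ug of total RNA each, per the labels' protocols. Per the submitters' processing notes, the log2 values that the authors deposited came from RMA in Partek, whose version is not given in the sources used here.

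Of 45101 probe sets, 34958 name 1 gene, and the probe set with the highest mean stood for each of 18194 genes, with no filter on level. Low and high tumours were compared by means and overlap, without a test. Tumours and controls were compared with limma 3.58.1 in R 4.3.3, with a mean for each genotype and age, ages weighted equally and Benjamini-Hochberg adjustment over all genes (threshold 0.05). The fit was tested on simulated data. The number of arrays limits the precision.

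The division and the 33 gene lists were chosen with earlier results of these data known. Genes named were Ifit2, the 12 largest differences in each direction among called genes, the 4 largest of each list, effectors without overlap, the 10 genes most like Ifit2, interferon ligands, receptors and signalling genes, and defining cell markers; others named were chosen after their values were seen. Alternatives were other summaries of probe sets, normalisations, a level filter, eBayes settings, single ages and arrays left out. Tables were made with Python 3.11.15.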

Additional observations from a re-analysis of the deposited data

Results flagged for a closer look

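For the 117 genes followed, a gap test (Dixon's, at the 95% level) looked for an array far from the rest within the 6 Ifit2-high tumours and within the 5 controls. It marked 28 of 234 groups. Chance alone marks about 1 in 20 groups, but these marks cannot be read against that rate, since genes of one list move together and several of the genes were named because KO_tumor_11M replicate 2 stood apart.

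All 18 marks among the high tumours fell on KO_tumor_11M replicate 2. It was the lowest high tumour for the interferon-stimulated genes Ifit3 (8.64), Mx1 (4.63), Oasl1 (8.37), Oas1a (7.89), Cmpk2 (6.51), Bst2 (9.0), Usp18 (8.19) and Irf7 (7.99). The same held for Il33 (7.52), Mgst2 (7.34), Apela (3.40), Pfkp (6.32), Got1 (11.34), Nnmt (10.45) and Iqca (4.10). It was the highest for Gbp2b (7.98) and for the immediate early genes Junb (9.59) and Egr1 (12.62). In this tumour these effectors were thus low and Gbp2b, Junb and Egr1 high, although its Ifit2 was above the threshold.

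Among controls, 10 groups held an array far from the rest. control_liver_14M replicate 1 was the highest for Ifit1bl1 (5.06), Clec4f (9.73) and Ptprc (8.43) and the lowest for Oasl2 (3.90), Gbp2b (4.80) and Nlrc5 (6.60). control_liver_14M replicate 2 was the highest for Oasl1 (7.59) and the lowest for Phf11d (6.34). control_liver_14M replicate 3 was the lowest for Ifnar1 (7.42), and control_liver_11M replicate 2 the lowest for Ildr2 (8.03).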

How the results depend on the processing

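The low group holds 2 arrays, and with 1 array left at an age non-overlap becomes easier by construction. Using only the 11-month tumours gave 898 genes lower and 725 higher in the low tumour, with 17 effectors lower. Only the 14-month tumours gave 739 and 736, with 27 effectors lower. Leaving out each tumour in turn gave 324 to 753 genes lower, 346 to 650 higher and 12 to 28 effectors lower. With KO_tumor_14M replicates 1 and 2 averaged as 1 sample, 339 genes were lower, 386 higher and 12 effectors lower, and 34 effectors were higher in tumours than in controls. Keeping only genes above the median level left 8 of the 13 called effectors. The rest lay at or below that level and were dropped, as the filter changes no gene's own call. The split by another Ifit2 probe set was not run, because 1 probe set names this gene. Between tumours and controls, leaving out each array gave 24 to 44 effectors higher and 0 to 1 lower (where 1 control of 11 months was left, it was assumed to vary like the other groups), and leaving out both nearly identical controls, an alternative chosen after seeing the data, gave 17 higher. With arrays shifted to 1 median 1 effector was lower in tumours. For single genes, 1657 of the differences between low and high tumours recomputed under 15 alternatives stayed within 1 SD of the high tumours, 80 moved further and 0 called ones changed sign. Called genes do not overlap, so leaving out or averaging arrays, keeping 1 age or filtering by level cannot change their sign. For those alternatives the 0 was fixed in advance and shows nothing about stability. Of 31 interferon genes past the threshold in limma, 11 passed in all 21 alternatives, and most calls were lost without control_liver_11M replicate 2 (17). No paired analysis was possible because the labels give no numbers shared between groups, and arrays were numbered within a group only to name them.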

Other observations

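Liver gene lists outside the interferon system also differed between single tumours. Of 17 cholesterol synthesis genes, Dhcr7 (8.61 and 8.82 in the low tumours, 9.75 to 10.81 in high tumours) and Pmvk (7.76 and 7.12, against 7.84 to 9.86) were called lower (1.85% of all genes). Both low tumours lay below all controls for all 17 genes (19.1% of all genes). The mean level over the list was 8.90 to 9.16 in the low tumours, 10.57 to 10.87 in controls and 10.93 in KO_tumor_11M replicate 2, the highest of all arrays. The lowest high tumour was at 8.26, below both low tumours. Over all tumours, 10 of the 17 genes were lower than in controls (limma, adjusted p under 0.05, against 9.81% of all genes). Idi1, an isomerase of the pathway, was at 9.05 and 9.17 in the low tumours and at 11.74 to 12.27 in controls. The high tumours ran from 7.86, below both low tumours, to 12.40 in KO_tumor_11M replicate 2. Of 16 acute phase genes 1 was called lower (1.85% of all genes), the iron hormone Hamp (8.79 and 9.91, against 10.83 to 13.48 in high tumours and 12.23 to 13.65 in controls).

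Of 16 clock genes 1 was called higher (1.97% of all genes), the transcription factor Hlf (7.65 and 7.55, against 3.38 to 7.52). Of 28 published miR-122 targets 1 was called lower (1.85% of all genes), the amino acid carrier Slc7a1, at 5.88 and 6.02, against 7.34 to 9.56 in high tumours and 5.49 to 5.92 in controls. For 18 of these 28 targets both low tumours lay above all controls (15.9% of all genes). All 6 high tumours lay above all controls for 21 of them (9.08% of all genes), so this was no trait of the low tumours alone. Of 15 fetal liver and tumour markers 1 was called higher (1.97% of all genes), Ly6d, and the trypsin inhibitor Spink1 was at 4.50 and 4.30, at 4.27 in KO_tumor_11M replicate 2 and at 5.42 to 8.55 in the other 5 high tumours. Of 11 male-biased liver genes 1 was called lower (1.85% of all genes), the oxysterol hydroxylase Cyp7b1 (10.32 and 10.28, against 11.13 to 12.27 in high tumours and 13.02 to 13.47 in controls). Lists of 26 complement and coagulation genes, 18 NF-kappaB target genes, 4 sex-linked genes and 2 strain-variable genes had 0 calls (3.81% of all genes).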
